A study of Homo sapiens with 6 samples.

Results

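The 10 genes described here belong to a growth factor signalling system and were followed in 786-O cells after targeting of PLOD2: the EGFR ligands TGFA, AREG, EREG and HBEGF, the ERBB receptors EGFR, ERBB2 and ERBB3, the HGF receptor MET, and the receptor AXL with its ligand GAS6. They were taken by gene name from a deposited table of 58395 genes, in which each of the 10 names occurred on 1 row. The assay was RNA sequencing, with 6 libraries. The sgPLOD2 group (3 libraries) came from 786-O cells in which PLOD2, the gene for lysyl hydroxylase 2, had been targeted by CRISPR/Cas9, and its labels call it a PLOD2 knockout. The sgControl group (3 libraries) came from 786-O cells with a control guide. All cells were grown in RPMI-1640 with fetal bovine serum, and 786-O is a human clear cell renal carcinoma line without functional VHL. The labels do not say whether either group was a clone or a pool, or whether the 3 libraries of a group were grown as separate cultures. The p-values therefore reflect the library-to-library spread alone, and this spread may be technical.

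The EGFR ligands are made as membrane proteins and are released by sheddases of the ADAM family. They bind EGFR, which pairs with itself or with ERBB2, a partner that has no ligand of its own, or with ERBB3, whose own kinase is weak. MET is the receptor of hepatocyte growth factor, and AXL, of the TAM family, is bound by the vitamin K-dependent protein GAS6. The active receptors signal through RAS-ERK and PI3K. In VHL-deficient renal carcinoma TGFA is a known target of HIF-2, and EGFR, MET and AXL are well-studied receptors of that tumour.

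Levels are given in FPKM, which is scaled to gene length and to the mapped fragments of each library. Library sums of FPKM ranged from 229485 to 238801 in sgPLOD2 and from 243422 to 268612 in sgControl, without overlap. Absolute depth is unknown, so no counting error is given. Renal carcinoma markers reached a mean of 1 FPKM for 7 of 8 genes, with a summed level of 1116 to 1206 FPKM in sgPLOD2 and 1245 to 1616 FPKM in sgControl. VIM carried most of this sum (a mean of 867 FPKM in sgPLOD2 and 1120 FPKM in sgControl), and VIM and PAX2 were called lower. EPAS1, the gene of HIF-2 alpha, was called higher, with a mean of 24.60 FPKM in sgPLOD2 and 11.97 FPKM in sgControl (limma adjusted p = 0.000282), as was NNMT. The 1 marker below that mean was CA9, at a mean of 0.323 FPKM in sgPLOD2 and listed at 0 in sgControl. Of the markers of other cell types, 1 of 5 leukocyte genes (CD68), 0 of 4 endothelial genes and 1 of 5 fibroblast genes (COL1A1) reached that mean. Their summed levels in sgPLOD2 and sgControl were 5.64 to 6.62 and 11.5 to 18.4 FPKM for leukocytes, 0.0234 to 0.0559 and 0.00882 to 0.0832 FPKM for endothelium, and 2.99 to 3.37 and 0.449 to 0.609 FPKM for fibroblasts. Among these markers CD3E, VWF and DCN were listed at 0 in every library. PDGFRB averaged 0.179 FPKM in sgPLOD2 and 0.0197 FPKM in sgControl, without overlap, and CD14 averaged 0.187 and 0.131 FPKM in that order. The part of the CD68, COL1A1 and PDGFRB differences in the results was not tested. PLOD2 itself (chromosome 3, 146069440 to 146163653, GRCh38) had 5.98, 10.1 and 6.64 FPKM in sgPLOD2, against 26.8, 25.7 and 21.5 FPKM in sgControl. An exact permutation test (2-sided) of PLOD2 reached p = 0.1, its lower limit with 3 libraries against 3.

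The promoters of 4 members are shown because TGFA and GAS6 had lower mRNA in sgPLOD2, EGFR had higher mRNA, and AXL was the most abundant receptor. Each is the 250 bases upstream of a RefSeq transcript start (GRCh38.p14), on the strand of the gene, and capitals mark the GC box GGGCGG or its complement CCGCCC. TGFA lies on chromosome 2 (70447284 to 70554193, minus strand) and the window is chr2:70553827-70554076. This window lies inside the stated gene coordinates, because the RefSeq start used is at 70553826. GAS6 lies on chromosome 13 (113820549 to 113864076, minus strand) and the window is chr13:113864077-113864326. EGFR lies on chromosome 7 (55019017 to 55211628, plus strand) and the window is chr7:55018767-55019016. AXL lies on chromosome 19 (41219223 to 41261766, plus strand) and the window is chr19:41218973-41219222.
TGFA: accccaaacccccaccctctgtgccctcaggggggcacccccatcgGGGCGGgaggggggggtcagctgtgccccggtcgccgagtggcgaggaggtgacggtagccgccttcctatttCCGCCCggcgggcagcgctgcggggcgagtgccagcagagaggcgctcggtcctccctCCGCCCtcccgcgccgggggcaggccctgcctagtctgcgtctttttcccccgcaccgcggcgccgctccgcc
GAS6: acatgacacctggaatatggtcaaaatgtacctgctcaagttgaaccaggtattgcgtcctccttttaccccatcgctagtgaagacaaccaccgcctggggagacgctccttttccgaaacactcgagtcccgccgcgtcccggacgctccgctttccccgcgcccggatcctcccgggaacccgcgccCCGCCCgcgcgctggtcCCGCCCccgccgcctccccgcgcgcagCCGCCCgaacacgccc
EGFR: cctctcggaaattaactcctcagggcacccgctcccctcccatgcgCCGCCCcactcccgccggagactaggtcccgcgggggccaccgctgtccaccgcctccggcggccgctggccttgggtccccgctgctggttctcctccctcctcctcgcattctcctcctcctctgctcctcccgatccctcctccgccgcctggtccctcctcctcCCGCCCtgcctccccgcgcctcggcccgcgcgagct
AXL: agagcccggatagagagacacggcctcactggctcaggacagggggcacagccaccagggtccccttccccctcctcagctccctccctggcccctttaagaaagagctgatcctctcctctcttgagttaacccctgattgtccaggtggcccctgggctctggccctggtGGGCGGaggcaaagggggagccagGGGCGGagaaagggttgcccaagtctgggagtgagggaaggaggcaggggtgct

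These windows held 3 GC boxes for TGFA, 3 for GAS6, 2 for EGFR and 2 for AXL, and 42.5% of all 34943 RefSeq windows of the same length held at least 1. GC content was 75.6%, 66.8%, 73.6% and 64.4% in that order, against a median of 58.0% over all windows. The HIF core motif, searched as ACGTG or GCGTG on both strands, had 1 match in the GAS6 window and 0 in the other 3, and 43.2% of all windows held it. A second TGFA start (chr2:70553447-70553696) had 1 HIF core match and 0 GC boxes, and a second AXL start (chr19:41226505-41226754) had 4 HIF core matches and 0 GC boxes. The AP-1 motif TGANTCA had 0 matches in the 4 windows printed, against 6.59% of all windows, and 2 in the window of a second EGFR start (chr7:55109589-55109838). No match of 1 motif overlapped a match of another in these windows. Windows were found for 9 of the 10 members, all but ERBB3. A match describes letters only, and no binding was measured.

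**Figure D1:**
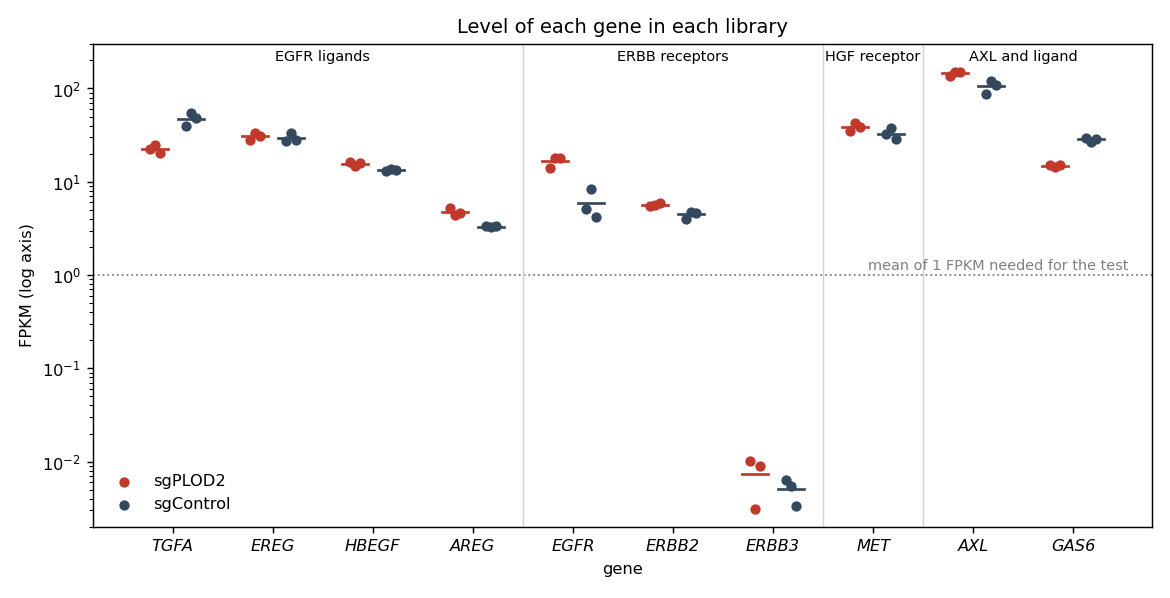
FPKM (log axis) of the 10 genes in each library, with sgPLOD2 (red) left of sgControl (dark blue) and a line at each mean of 3 libraries. TGFA and GAS6 lie lower in all 3 sgPLOD2 libraries, EGFR lies higher, and ERBB3 is near 0.01 FPKM or below in both groups.

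TGFA and GAS6 fell and EGFR rose, while the other changes were small. On log2(FPKM + 1), tested with limma at an adjusted p under 0.05 (called, in what follows), 7 of the 9 members tested were called, where 52.9% of all 10469 tested genes were. Of these, 5 were higher (EGFR, AXL, AREG, ERBB2 and HBEGF) and 2 lower (TGFA and GAS6). EREG and MET were not called, and ERBB3 was below the minimum mean of 1 FPKM. Over all tested genes, 29.5% were called higher and 23.5% lower, so calls alone do not set these genes apart. EGFR and TGFA also passed a change of 1 on the log2 scale, as 8.94% of tested genes did. The groups did not overlap in the same 7 members, as in 62.7% of tested genes. The median log2 fold change was 0.24 over the 9 tested members and 0.06 over all tested genes. Fewer cells that express a gene and less RNA per cell cannot be told apart in such libraries.

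TGFA, which encodes the EGFR ligand TGF-alpha, fell to 47.4% of its control level. It had 22.5, 24.6 and 20.4 FPKM in sgPLOD2, against 39.5, 54.2 and 48.6 FPKM in sgControl. Every sgPLOD2 library was below every sgControl library, as for 28% of tested genes, and sgControl replicate 2 was the highest of all. The means were 22.5 ± 2.09 FPKM in sgPLOD2 and 47.4 ± 7.42 FPKM in sgControl (SD, n = 3 each). The log2 fold change was -1.04 ± 0.13 (SE; limma adjusted p = 0.00081). It was called in all 19 alternative settings, between -1.29 and -0.92.

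EREG, the gene of epiregulin, did not change detectably. It had 27.9, 33.5 and 30.9 FPKM in sgPLOD2, against 27.5, 33.6 and 28.0 FPKM in sgControl. The groups overlapped over nearly their whole ranges. The log2 fold change was 0.05 with a 95% interval of -0.21 to 0.31 (limma adjusted p = 0.729). With the median of neighbouring genes removed, as described below, it was -0.33 and called (limma adjusted p = 0.0458).

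HBEGF and AREG, the genes of heparin-binding EGF-like growth factor and amphiregulin, were both called higher by small amounts. HBEGF had 16.4, 14.8 and 15.8 FPKM in sgPLOD2, against 13.0, 13.6 and 13.2 FPKM in sgControl. AREG had 5.19, 4.41 and 4.61 FPKM in sgPLOD2, against 3.36, 3.24 and 3.33 FPKM in sgControl. In both genes all sgPLOD2 libraries were above all sgControl libraries, as in 34.7% of tested genes. HBEGF averaged 1.18 times its control level (log2 fold change 0.22 ± 0.08, SE; limma adjusted p = 0.0474). The HBEGF call was lost without any 1 of the 6 libraries (adjusted p from 0.066 to 0.155) and held in 6 of 19 settings. AREG averaged 1.43 times its control level (log2 fold change 0.41 ± 0.09, SE; limma adjusted p = 0.00746), or 0.094 (limma adjusted p = 0.427) with the median of neighbouring genes removed.

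The make-up of the ligand mRNA pool therefore differed. The 4 ligands summed to 72.0, 77.3 and 71.7 FPKM in sgPLOD2, against 83.3, 104.7 and 93.2 FPKM in sgControl. TGFA made up 28.5% to 31.8% of this sum in sgPLOD2 and 47.4% to 52.1% in sgControl. EREG made up 38.7% to 43.3% in sgPLOD2 and 30.1% to 33.0% in sgControl, so EREG led in each sgPLOD2 library and TGFA in each sgControl library. HBEGF contributed 19.2% to 22.7% in sgPLOD2 and 13.0% to 15.6% in sgControl. AREG was the smallest share in every library, at 5.70% to 7.21% in sgPLOD2 and 3.10% to 4.03% in sgControl.

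**Figure D2:**
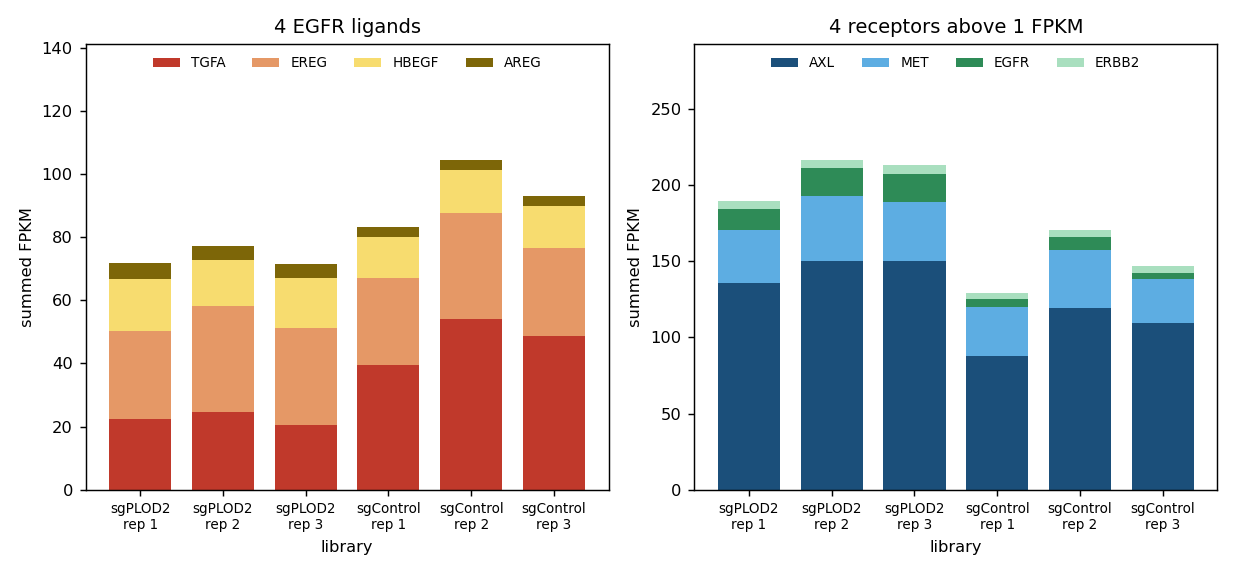
Stacked FPKM per library of the 4 EGFR ligands (left) and of the 4 receptors above 1 FPKM (right), sgPLOD2 libraries first. TGFA (28.5% to 31.8% against 47.4% to 52.1%) shrinks within the ligand sum, and AXL fills most of the receptor sum in every library.

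EGFR, the receptor of these ligands, rose to 2.82 times its control level. It had 13.9, 18.1 and 18.2 FPKM in sgPLOD2, against 5.08, 8.46 and 4.22 FPKM in sgControl. The groups did not overlap, and within sgControl replicate 2 stood above the other libraries. The means were 16.7 ± 2.43 FPKM in sgPLOD2 and 5.92 ± 2.24 FPKM in sgControl (SD, n = 3 each), with a log2 fold change of 1.39 ± 0.22 (SE; limma adjusted p = 0.0021). It was called in all 19 settings. After a smooth trend of fold change over GC and length of the transcripts had been subtracted (the GC and length trend below), it was 0.89 (limma adjusted p = 0.0169).

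ERBB2, which pairs with EGFR, was called higher by 1.27 times, and ERBB3 was barely detected. ERBB2 had 5.46, 5.70 and 5.90 FPKM in sgPLOD2, against 3.95, 4.79 and 4.64 FPKM in sgControl, without overlap (log2 fold change 0.29 ± 0.09, SE; limma adjusted p = 0.0345). Its call was lost without any 1 sgPLOD2 library or without sgControl replicate 3 (adjusted p from 0.0654 to 0.101), and with neighbouring genes' median removed the log2 fold change was 0.054 (limma adjusted p = 0.67). On the opposite strand ERBB2 overlaps PGAP3 and MIEN1, with means of 2.00 and 9.93 FPKM. No strand setting is given in the sources used here, so reads from the stretches they share with ERBB2 cannot be assigned to a strand. ERBB3 had 0.0102, 0.00311 and 0.00891 FPKM in sgPLOD2, against 0.00634, 0.00551 and 0.00335 FPKM in sgControl, and the groups overlapped. Of the remaining ERBB family, ERBB4 was listed at 0 in every library.

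MET, the HGF receptor, was not called. It had 35.0, 43.1 and 38.6 FPKM in sgPLOD2, against 32.2, 37.7 and 28.7 FPKM in sgControl. The groups overlapped, since sgControl replicate 2 was above sgPLOD2 replicate 1. The log2 fold change was 0.24 with a 95% interval of -0.06 to 0.53 (limma adjusted p = 0.147). Once the GC and length trend was subtracted, the value turned to -0.21 (limma adjusted p = 0.21). With the median of neighbouring genes removed it was 0.49 and called (limma adjusted p = 0.017).

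AXL rose while its ligand gene GAS6 fell. AXL had 135, 150.0 and 150.2 FPKM in sgPLOD2, against 87.6, 119 and 109 FPKM in sgControl, and was the most abundant of the 10 genes in every library. The groups did not overlap, and sgControl replicate 1 was the lowest. Its means were 145 ± 8.47 FPKM in sgPLOD2 and 105 ± 16.3 FPKM in sgControl (SD, n = 3 each), a log2 fold change of 0.47 ± 0.13 (SE; limma adjusted p = 0.0178). The AXL call was lost without sgPLOD2 replicate 2 (0.0616) or replicate 3 (0.0601), and when the GC and length trend was subtracted (0.0573).

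GAS6 had 15.1, 14.2 and 15.2 FPKM in sgPLOD2, against 29.7, 27.0 and 28.7 FPKM in sgControl. All 3 sgPLOD2 libraries lay below all sgControl libraries, with little spread inside either group. The means were 14.8 ± 0.53 FPKM in sgPLOD2 and 28.5 ± 1.36 FPKM in sgControl (SD, n = 3 each), so 52.1% of the control level was left. The log2 fold change was -0.90 ± 0.08 (SE; limma adjusted p = 0.000171), and GAS6 was called in all 19 settings, between -0.99 and -0.52. The value nearest 0 was that with the median of neighbouring genes removed. The level of GAS6 came to 9.48% to 11.1% of that of AXL in sgPLOD2 and to 22.6% to 33.9% in sgControl.

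**Figure D3:**
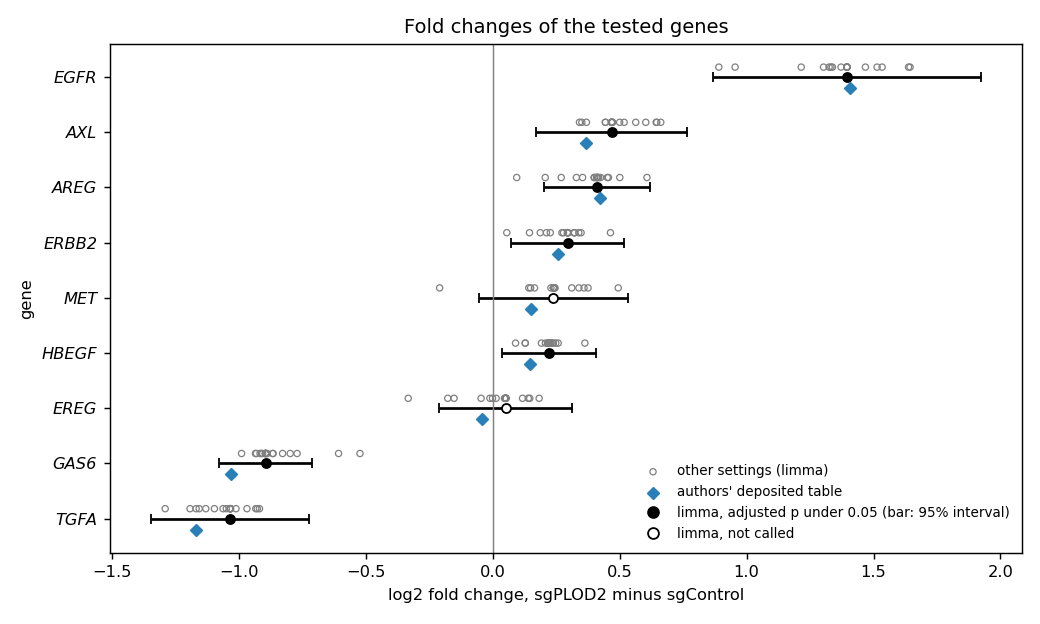
Log2 fold change (sgPLOD2 minus sgControl) of the 9 tested genes: black points with 95% intervals from limma on log2(FPKM + 1), filled where called; grey circles for the other settings; blue diamonds for the authors' deposited table. TGFA, GAS6, EGFR, AREG, HBEGF, ERBB2 and AXL keep their side of 0 throughout, whereas EREG and MET have points on both sides.

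In the order of levels, AXL came first in both groups. In sgPLOD2 it was followed by MET (38.9 FPKM on average), EREG (30.7), TGFA (22.5), EGFR (16.7), HBEGF (15.7), GAS6 (14.8), ERBB2 (5.69), AREG (4.74) and ERBB3. Ranges were compared only between genes next to each other in the order. In sgPLOD2 those of EGFR and HBEGF overlapped, as did those of HBEGF and GAS6. In sgControl the order after AXL was TGFA (47.4 FPKM on average), MET (32.9), EREG (29.7), GAS6 (28.5), HBEGF (13.3), EGFR (5.92), ERBB2 (4.46), AREG (3.31) and ERBB3. Of genes next to each other there, MET and EREG, EREG and GAS6, and EGFR and ERBB2 overlapped. The ratio of TGFA to EGFR was 1.12 to 1.62 in sgPLOD2 and 6.41 to 11.5 in sgControl, and the ratio of AXL to EGFR was 8.26 to 9.73 in sgPLOD2 and 14.1 to 25.9 in sgControl.

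The authors' deposited table compared the same 2 groups with its own fit and gave adjusted p-values under 0.05 for 35.5% of the 22870 genes that had one, 18.5% higher and 17% lower. Among the 10 members that table called 4: TGFA (log2 fold change -1.17, adjusted p = 3.33e-11), GAS6 (-1.03, 2.12e-14), EGFR (1.41, 2.71e-07) and AREG (0.42, 0.0296). In the authors' deposited table AXL had 0.37 with an adjusted p of 0.0682, ERBB2 0.26 with 0.174, HBEGF 0.14 with 0.433, MET 0.15 with 0.532 and EREG -0.04 with 0.873. Over the tested genes the log2 fold changes of the authors' deposited table were lower than the log2 ratios of mean FPKM by a median difference of -0.09.

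The genes around several members are given beside the 29.5% of all tested genes called higher and the 23.5% called lower. On whole chromosomes these shares were 27.3% and 29.3% for EGFR and MET, and 12.6% and 34.5% for AXL. They were 11.9% and 36.25% for GAS6, and 32.7% and 16.0% for TGFA. For AREG and EREG they were 42.0% and 18.4%, and for ERBB2 34.5% and 18.75%. Of 12 tested genes that start within 5 Mb of EGFR, 8 were called higher and 1 lower, with a median log2 fold change of 0.44, and none of the 12 exceeded EGFR. Around MET, on the same chromosome, 0 of 14 were called higher and 6 lower, the median was -0.26, and MET lay above all 14. Around AXL 11 of 110 were called higher and 40 lower, with a median of -0.18, opposite to AXL itself. Around GAS6 0 of 21 were called higher and 12 lower, with a median of -0.37. Around TGFA 15 of 61 were called higher and 8 lower, with a median of 0.14, and 1 gene fell further than TGFA. Around AREG 17 of 31 were called higher and 6 lower (median 0.32), and around EREG 18 of 31 and 6 (median 0.38). Around ERBB2 54 of 127 were called higher and 13 lower (median 0.24). With each gene's neighbourhood median removed, EGFR had 0.95 (limma adjusted p = 0.0131), AXL 0.65 (0.00613), GAS6 -0.52 (0.00205) and TGFA -1.17 (0.00065), all still called.

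**Figure D4:**
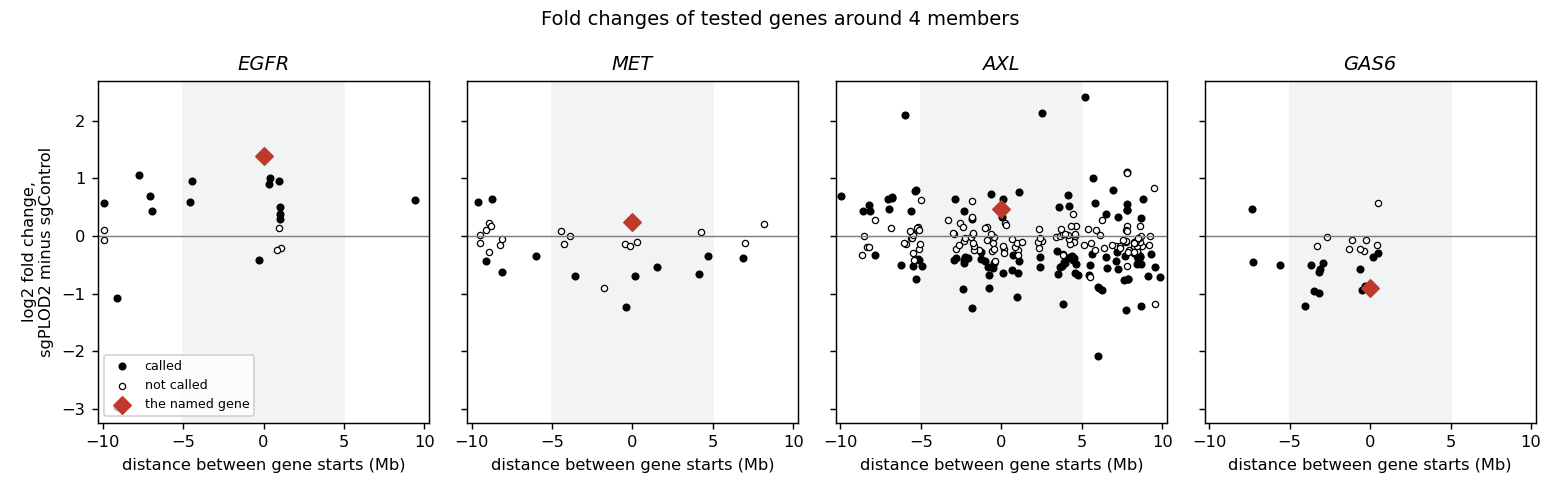
Log2 fold change (sgPLOD2 minus sgControl) of tested genes against the distance of their start from that of EGFR, MET, AXL or GAS6 (Mb), filled where called, with the named gene as a red diamond and the 5 Mb window shaded. EGFR and MET lie above all genes in their windows, and most called genes around GAS6 are below 0.

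Other ligands and receptors of the system were mostly weak or absent. Of 7 other ERBB ligands 1, the neuregulin gene NRG1, passed the filter, and it rose to 4.74 ± 0.20 FPKM in sgPLOD2, against 2.85 ± 0.34 FPKM in sgControl (SD, n = 3 each; log2 fold change 0.58, limma adjusted p = 0.00251). The NRG1 call was lost with the GC and length trend removed (0.169). EGF averaged 0.225 FPKM in sgPLOD2 and 0.121 FPKM in sgControl, NRG2 0.502 and 0.185 FPKM, and BTC 0.526 and 0.390 FPKM in that order. EPGN, NRG3 and NRG4 were each listed at 0 in at least 1 library of both groups, and the highest value among them was 0.119 FPKM, for NRG4 in sgControl replicate 1. HGF, the ligand of MET, was listed at 0 in 5 of 6 libraries and had 0.00278 FPKM in sgPLOD2 replicate 3. The TAM ligand gene PROS1 averaged 0.476 FPKM in sgPLOD2 and 0.352 FPKM in sgControl, and the HGF-like gene MST1 averaged 0.0629 and 0.0728 FPKM. Among receptors TYRO3 was not called, with 3.37 ± 0.36 FPKM in sgPLOD2 and 3.22 ± 1.17 FPKM in sgControl (SD, n = 3 each), MERTK averaged 0.345 and 0.0819 FPKM, and MST1R was listed at 0 in 1 library and did not exceed 0.0169 FPKM.

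Genes of ligand shedding were called in both directions, as were all tested genes (29.5% higher and 23.5% lower). Of 9 such genes 8 were tested, 3 were called higher and 3 lower, and the median log2 fold change was 0.00. RHBDF1 and RHBDF2 encode the inactive rhomboids that carry the sheddase ADAM17 to the surface. ADAM17 itself was called higher, with 8.32 ± 0.89 FPKM in sgPLOD2 and 4.93 ± 1.76 FPKM in sgControl (log2 fold change 0.70, limma adjusted p = 0.0348). Without the filter on low values ADAM17 was not called (limma adjusted p = 0.0959). ADAM15, of the same list, was called lower (log2 fold change -0.77, limma adjusted p = 0.00331). RHBDF2 had 9.67 ± 1.15 FPKM in sgPLOD2 and 24.6 ± 3.08 FPKM in sgControl (log2 fold change -1.26), and RHBDF1 had 2.40 ± 0.43 FPKM in sgPLOD2 and 8.30 ± 1.63 FPKM in sgControl (log2 fold change -1.44), with limma adjusted p-values of 0.000282 for RHBDF2 and 0.000446 for RHBDF1. ADAM10, a sheddase, rose to 5.94 ± 0.93 FPKM in sgPLOD2, against 3.00 ± 0.33 FPKM in sgControl (SD, n = 3 each; limma adjusted p = 0.00198). Its call was lost once the GC and length trend was taken out (0.176), and in that setting 0 shedding genes were called higher and 3 lower. Of 6 HGF-activating proteases and their inhibitors 2 were tested. The urokinase gene PLAU rose to 73.3 ± 2.62 FPKM in sgPLOD2, against 33.3 ± 2.14 FPKM in sgControl, and the inhibitor gene SPINT2 had 26.8 ± 2.31 FPKM in sgPLOD2 and 25.9 ± 4.21 FPKM in sgControl and was not called.

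Adaptors and attenuators downstream of the receptors held genes called in both directions, where 29.5% of all tested genes were called higher and 23.5% lower. Of 16 adaptors and proximal effectors 13 were tested, 7 were called higher and 2 lower, with a median log2 fold change of 0.37. The exchange factor gene SOS2 rose by 0.83 on the log2 scale, whereas the kinase gene SRC fell by 0.72 and the adaptor gene SHC1 fell by 0.56. Of 12 genes listed as attenuators, 11 were tested, 7 were called higher and 2 lower, with a median of 0.49. LRIG1, which promotes loss of ERBB receptors, rose to 5.03 ± 0.33 FPKM in sgPLOD2, against 1.22 ± 0.40 FPKM in sgControl. UBASH3B, a phosphatase that binds CBL, rose to 13.4 ± 0.72 FPKM in sgPLOD2, against 4.58 ± 0.62 FPKM in sgControl. Whether it limits or spares the receptors in these cells was not tested. ERRFI1, which encodes the EGFR inhibitor MIG6, fell to 22.7 ± 0.26 FPKM in sgPLOD2, against 51.4 ± 6.96 FPKM in sgControl (SD, n = 3 each; limma adjusted p = 0.000258). Once the GC and length trend was subtracted, 3 adaptors were called higher and 3 lower, and 4 attenuators higher and 2 lower. With neighbouring genes' medians removed, 4 adaptors were called higher and 2 lower, and 4 attenuators higher and 1 lower.

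In the RAS-ERK cascade 3 of 9 tested genes were called higher and 0 lower, with a median log2 fold change of 0.00, and the share called higher was near the 29.5% of all tested genes. NRAS rose by 0.52 on the log2 scale, a call lost with the GC and length trend removed (0.097) or with neighbouring genes' median removed (0.12). Of 13 ERK output genes 10 were tested and 3 were called higher and 0 lower, with a median of 0.20, again near the share of all tested genes called higher. The count was 6 higher under TPM scaling, 5 with quantile normalization and 0 with a minimum of 5 FPKM. The ETS factor gene ETV4 rose to 2.36 ± 0.25 FPKM in sgPLOD2, against 0.903 ± 0.185 FPKM in sgControl, and the ERK inhibitors SPRED1 and SPRED2 rose by 0.57 and 0.56 on the log2 scale. SPRED1 was not called with the GC and length trend removed (0.468).

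**Figure D5:**
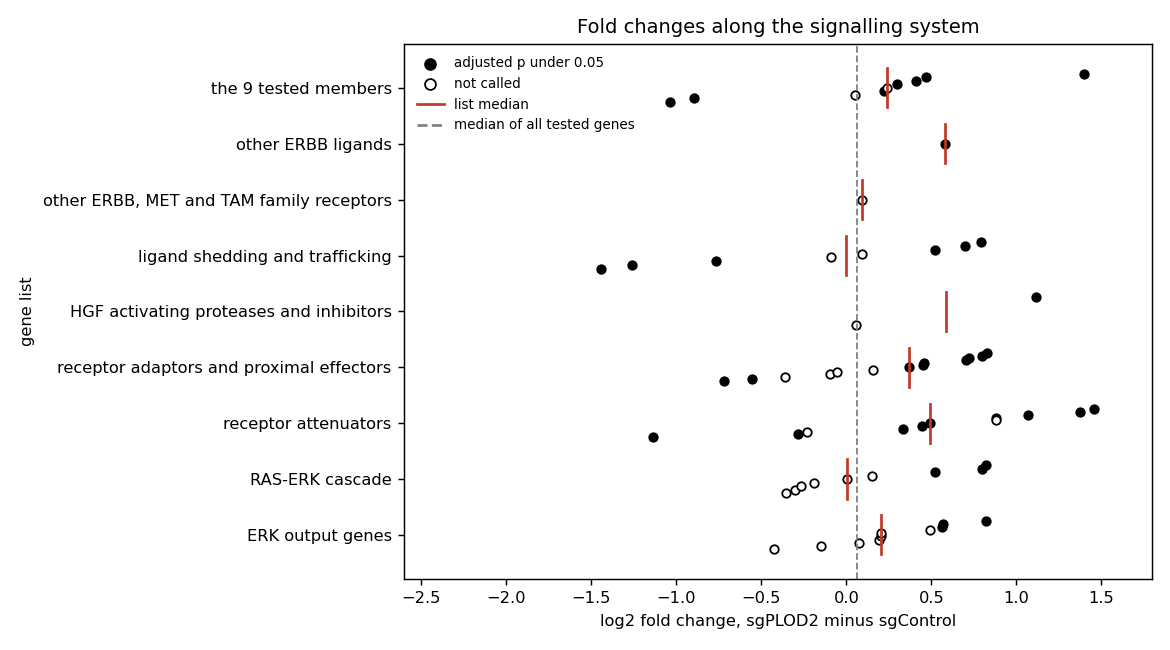
Log2 fold change (sgPLOD2 minus sgControl) of every tested gene in the members and in 8 lists of the same signalling system, filled where called, with the list median in red and the median of all tested genes (0.06) dashed. Called genes lie on both sides of 0 among shedding genes, adaptors and attenuators, where 29.5% of all tested genes were called higher and 23.5% lower.

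The tested genes with the profile closest to each of 4 members were found by the mean absolute difference, over the 6 libraries, between log2(FPKM + 1) values centred on each gene's own mean. FAM107B and WBP2 were closest to TGFA, both with a difference of 0.06. MED1 (0.11) and MDN1 (0.13) were closest to EGFR, and both were higher in sgControl replicate 2 than in the other sgControl libraries. WDFY1 (0.02) and MIGA1 (0.04) were closest to MET. AC005670.3 and CBX6 were closest to AXL, both at 0.02, and both were lowest in sgControl replicate 1. Such shared replicate patterns follow from how these genes were picked and are no separate result.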

How the data were processed

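Per the labels' protocols, RNA was taken from 786-O cells with Trizol and sequenced from standard Illumina libraries. The submitters' processing notes name CASAVA, HISAT2 2.1.0, StringTie 1.3.4 and the build GRCh38, with no roles. How fragments were counted, on which strand and with which annotation is not given in the sources used here. Per the file headers, the authors deposited 1 FPKM value per gene and library, with no scaling between libraries recorded. Further deposited columns gave the authors' comparison as p-values, a test score, a log2 fold change with an error, and an average normalized count. Gene starts were matched to GENCODE release 29, which held 58275 of 58395 identifiers.

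The 10469 genes whose mean reached 1 FPKM were tested, 2-sided, by limma 3.58.1 (R 4.3.3), with lmFit and a trended eBayes, after the transform log2(FPKM + 1). Benjamini-Hochberg adjustment covered all of them, and 0.05 was the threshold. Each fold change is sgPLOD2 minus sgControl on that scale, which understates changes of weak genes. The exact permutation test used scipy 1.17.1. The fit was tested on simulated data. Whole reads were not recovered from FPKM, so depth per library is unknown.

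The members and gene lists were chosen with earlier results of these data known. Named genes were all members, PLOD2, the 3 genes with the smallest adjusted p of each list, the weak genes of the ligand and receptor lists, and the 2 genes closest to TGFA, EGFR, MET and AXL. ADAM17 and ADAM15 were named outside this rule, beside RHBDF1 and RHBDF2. For some genes of the RAS-ERK list that the rule names, values are not reported here. Of 19 alternatives, some changed the pseudocount (0.1, 0.5) or the filter (none, 5 FPKM), and others used TPM, median-of-ratios scaling, quantile normalization, no trend, robust estimation, a block for the replicate number, removal of chromosome medians, removal of a smooth GC and length trend (mgcv 1.9.3), removal of the median of genes within 5 Mb (chosen after seeing the data), and leaving out each of the 6 libraries. Promoter sequences are from RefSeq, on GRCh38.p14.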

Additional observations from a re-analysis of the deposited data

How the results depend on the processing

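TGFA, GAS6, EGFR and PLOD2 kept their direction and call in all 19 alternatives. TPM scaling moved the median log2 fold change of all tested genes from 0.06 to 0.20, and the share of calls that were higher was 66.8% under TPM, 47.1% with median-of-ratios scaling and 55.7% as planned; with a minimum of 5 FPKM it was 45.2%, with 1361 genes called higher. The number of members called higher, 5 as planned, was 3 with median-of-ratios scaling, quantile normalization, the GC and length trend subtracted or local medians removed, 2 with chromosome medians removed, and 2 to 4 without 1 library. The cause was not tested.

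The AREG call was lost with quantile normalization (0.27), chromosome medians removed (0.21) and local medians removed (0.094). HBEGF was not called with median-of-ratios scaling (0.13), no intensity trend (0.22), robust estimation (0.22), chromosome medians removed (0.089), the GC and length trend subtracted (0.22), local medians removed (0.13) or without any 1 library (0.19 to 0.26). ERBB2 was not called with median-of-ratios scaling (0.21), quantile normalization (0.19), chromosome medians removed (0.14) or local medians removed (0.054), and ranged from 0.23 to 0.34 without 1 library. AXL was not called once the GC and length trend was subtracted (0.35), and ranged from 0.34 to 0.56 without 1 library. MET reversed once the GC and length trend was subtracted (-0.21) and was called with local medians removed (0.49). EREG reversed with median-of-ratios scaling (-0.047), chromosome medians removed (-0.15), the GC and length trend subtracted (-0.18) and local medians removed (-0.33), and ranged from -0.012 to 0.14 without 1 library. Of the other genes named, TYRO3 reversed with quantile normalization (-0.049), chromosome medians removed (-0.037), the GC and length trend subtracted (-0.25) and local medians removed (-0.10), and ranged from -0.17 to 0.23 without 1 library, and SPINT2 reversed with median-of-ratios scaling (-0.040) and ranged from -0.078 to 0.14. All values are log2 fold changes.

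With the replicate number as a block 2984 genes were called higher and 2335 lower, against 3084 and 2456, and HBEGF was not called (0.22, adjusted p = 0.0874). Deviations of same-numbered libraries from their group means had correlations of 0.01, 0.14 and -0.05 across genes, and not every library correlated best with its own number, so the numbers were not taken to pair the samples. Counts of calls in the gene lists stayed within 1.5 times the planned count in 311 of 342 cases. Absolute depth is unknown, so genes under 1 FPKM are given as levels only.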
